A study of Homo sapiens with 6 samples.

Results

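YBX3 and the genes grouped with it encode RNA-binding proteins, most of which carry a cold shock domain. This domain is a small barrel-shaped fold, first described in bacteria after a drop in temperature, that binds single-stranded RNA and DNA. In human cells it is found in the Y-box proteins YBX1, YBX2 and YBX3, which coat messenger RNA and steer its translation and stability, in CARHSP1, which stabilizes TNF messenger RNA, and in LIN28B, which blocks the maturation of let-7 microRNAs. CIRBP and RBM3, the cold-inducible RNA-binding proteins, are listed with them but bind RNA through another fold, the RNA recognition motif, and do not carry the domain. YBX3, also named DbpA or ZONAB, is known as a partner of the tight junction protein ZO-1 and as a regulator of messenger RNA stability and of proliferation genes.

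The genes were chosen by name, and 6 of the 7 names were found among the 24526 genes of the count table. LIN28B had no entry and was not analysed here. The table holds genes with a summed count of at least 6 over all libraries. The choice rests on a readout, since the set was drawn up around YBX3, whose transcript was higher after RIPK4 silencing. The change of YBX3 is therefore given as a description, without a test.

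RNA was taken from WM266.4 cells, an established human melanoma cell line, 48 h after transfection. Control cells received a negative control siRNA (neg.si, 3 libraries) and silenced cells an siRNA specific for RIPK4 (RIPK4.si, 3 libraries) and no other agent. The paper names a single siRNA for RIPK4, so effects of RIPK4 loss cannot be told apart from other effects of that siRNA. The libraries were poly(A)-enriched and held between 28464057 and 31688095 read pairs on genes, with replicates named as separate samples. RIPK4 reached 54.7 to 85.8 CPM (counts scaled to the TMM-adjusted library size) in neg.si and 16.7 to 21.5 CPM in RIPK4.si, without overlap. All 8 melanocyte lineage markers checked were present at a mean of at least 10 CPM, and their summed level was 3573 to 4012 CPM in neg.si and 2635 to 2759 CPM in RIPK4.si. Keratinocyte markers summed to 10.5 to 16.3 CPM, nearly all from KRT10, with KRT1 not listed. Fibroblast, immune and endothelial markers each summed to at most 2.62 CPM in any library, with CDH5 not listed. The markers differed among themselves, as PMEL had a log2 fold change of -1.30, DCT of -0.73, TYR of -0.57 and S100B of -0.48 and SOX10 of -0.15, whereas TYRP1 had 0.36, MLANA 0.06 and MITF 0.04. The part of the lower sum in the changes below was not tested. A difference between bulk libraries cannot tell a change in every cell from a change in a part of the cells.

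The neg.si libraries also differed from each other by GC content. The rank correlation across genes between GC content and the deviation of a library from the mean was 0.564 in neg.si replicate 1 and -0.555 in neg.si replicate 3, and between -0.084 and 0.167 in the other 4 libraries. Genes are not independent points in such a correlation. Changes of the analysed genes of the set are therefore given both from the counts as deposited and after removal of this trend. Those of other genes are from the counts as deposited unless stated.

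The stretches of DNA around the start sites of the main genes are shown first, because Y-box proteins took their name from a promoter element, the Y box, whose core is an inverted CCAAT. The sequences are from RefSeq on GRCh38.p14, run from 250 bases before to 50 bases after the start site in RefSeq, and are written 5′ to 3′ on the strand of the gene. That start is also the gene start in the count table for YBX1, YBX2 and YBX3, whereas it lies inside the gene by 35 bases for RBM3, 611 for CARHSP1 and 9948 for CIRBP. Capitals mark CCAAT or its reverse complement ATTGG. YBX3 and RBM3 are shown as the genes whose libraries separated by group, and YBX1 and CIRBP as their closest relatives.

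YBX3, chr12:10723274-10723573, minus strand: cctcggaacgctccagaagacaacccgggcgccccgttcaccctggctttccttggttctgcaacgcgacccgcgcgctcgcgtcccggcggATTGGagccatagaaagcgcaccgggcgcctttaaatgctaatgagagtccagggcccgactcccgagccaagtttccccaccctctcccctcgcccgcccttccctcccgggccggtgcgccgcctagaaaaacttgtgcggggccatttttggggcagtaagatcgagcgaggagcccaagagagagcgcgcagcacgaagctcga
YBX1, chr1:42682168-42682467, plus strand: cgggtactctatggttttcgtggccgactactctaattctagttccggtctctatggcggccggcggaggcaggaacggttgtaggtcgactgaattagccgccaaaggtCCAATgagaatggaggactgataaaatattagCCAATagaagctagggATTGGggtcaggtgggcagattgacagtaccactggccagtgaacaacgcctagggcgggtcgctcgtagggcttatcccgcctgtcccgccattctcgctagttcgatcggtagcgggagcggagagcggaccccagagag
RBM3, chrX:48574234-48574533, plus strand: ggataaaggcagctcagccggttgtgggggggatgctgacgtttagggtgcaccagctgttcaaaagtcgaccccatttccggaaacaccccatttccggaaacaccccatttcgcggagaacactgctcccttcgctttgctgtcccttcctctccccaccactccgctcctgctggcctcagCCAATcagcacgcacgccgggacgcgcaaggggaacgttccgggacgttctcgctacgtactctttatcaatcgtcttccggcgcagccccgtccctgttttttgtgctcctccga
CIRBP, chr19:1269082-1269381, plus strand: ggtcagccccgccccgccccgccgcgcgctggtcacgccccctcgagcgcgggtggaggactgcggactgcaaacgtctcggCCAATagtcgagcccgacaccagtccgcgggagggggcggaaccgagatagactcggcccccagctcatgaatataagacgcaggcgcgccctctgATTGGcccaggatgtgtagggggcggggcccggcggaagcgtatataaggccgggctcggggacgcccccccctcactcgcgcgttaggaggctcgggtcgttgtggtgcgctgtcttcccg

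Counted with the RefSeq start site as 0, the motif begins at -158 in YBX3, at -66 in RBM3, at -168 and -72 in CIRBP, and at -140, -108 and -92 in YBX1. YBX2 holds it as well, whereas the windows of CARHSP1 and LIN28B do not. It is present in 5 of the 7 windows and in 34.6% of the 35116 promoter windows of the same length, so it is a common element and its match here is a description only.

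YBX3 (ENSG00000060138.13, chr12:10699089-10723323 of GRCh38, minus strand) had a transcript level of 36.3, 36.7 and 34.0 CPM in control libraries 1 to 3 and 84.4, 96.3 and 83.1 CPM in silenced libraries 1 to 3. Every RIPK4.si library lay above every neg.si library. The means were 35.6 ± 1.42 CPM with neg.si and 88.0 ± 7.28 CPM after silencing (SD, n = 3 each), a ratio of 2.47 and a log2 fold change of 1.30 with a standard error of 0.143. The neg.si replicates of YBX3 were tight, with a coefficient of variation of 3.98%, where that of RIPK4 was 22.0%, CARHSP1 31.2% and CIRBP 24.4%. The GC trend did not move the value, which was again 1.30 with a standard error of 0.117, and with each library left out in turn it lay between 1.24 and 1.35.

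**Figure D1:**
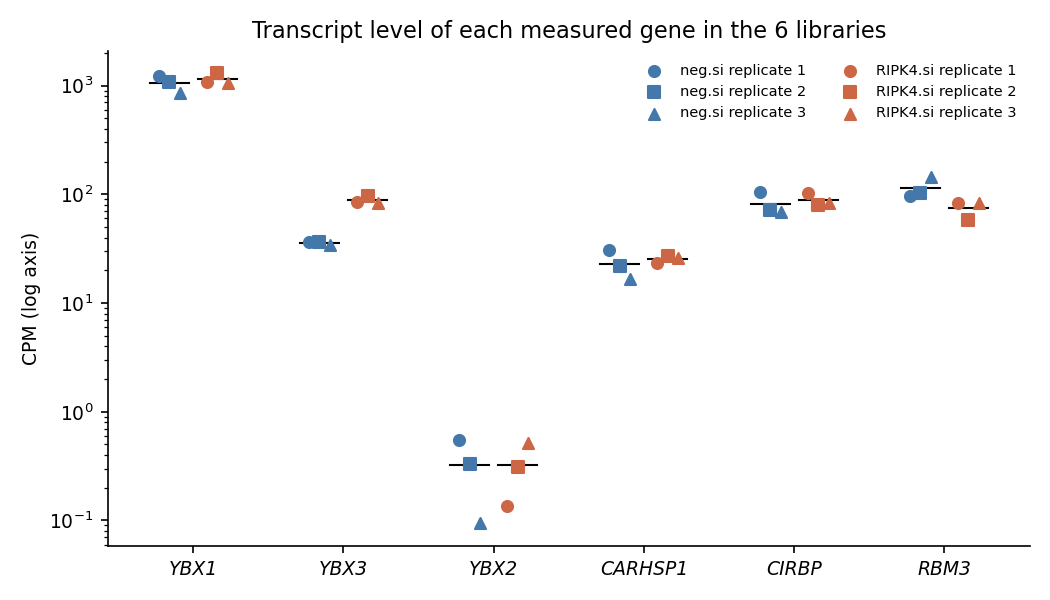
Transcript level in CPM on a log axis of the 6 genes measured, with a point per library, blue for neg.si and red for RIPK4.si, the shape giving the replicate number, and a black line at the mean of each group. YBX3 separates the groups upward, from at most 36.7 to at least 83.1 CPM, and RBM3 downward, from at least 96.9 to at most 83.8 CPM, while the other 4 genes overlap.

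YBX3 was left out of the counts of calls, since its rise is what the set was built on. Of the other 5 genes, 0 were called by edgeR's quasi-likelihood test with adjustment over all 16297 genes tested, where 0.767% of genes were called, and 0 by DESeq2, where 2.91% were and YBX2 got no adjusted p-value. Libraries of the groups did not overlap for 1 of these 5 genes, RBM3, against 17.6% of all genes tested, 8.23% with RIPK4.si higher and 9.4% with RIPK4.si lower. RBM3 was also the 1 gene of the 5 with an unadjusted p-value under 0.05, against 10.8% of all genes tested, 4.85% higher and 6.0% lower in RIPK4.si. With 1 gene of 5, neither count is a result about these genes. The median log2 fold change of all genes tested was -0.02.

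YBX1 (chr1:42682418-42703805), the founding Y-box protein and a general packer of messenger RNA, was by far the most abundant gene of the set, ranking 75 of 16297 by CPM. Its level was 1236, 1071 and 851 CPM in control libraries 1 to 3 and 1081, 1299 and 1066 CPM in silenced libraries 1 to 3. The groups overlapped, with neg.si replicate 3 lowest and RIPK4.si replicate 2 highest. The log2 fold change was 0.13 (95% interval -0.29 to 0.54, edgeR adjusted p = 0.915). YBX1 has processed pseudogenes, and the 3 that are listed held at most 19 counts in any library, against at least 27041 for YBX1 itself. How reads shared with these copies were assigned is not given in the sources used here.

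YBX2 (chr17:7288263-7294639), also named MSY2 or contrin, is the germ cell member that stores messenger RNA in oocytes and spermatids. It was barely detected, with 17, 10 and 3 counts in control libraries 1 to 3 and 4, 9 and 16 counts in silenced libraries 1 to 3. No change was detectable at this depth, as the log2 fold change of -0.01 had a 95% interval from -1.52 to 1.50.

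Expressed per kilobase of exon and per read depth (RPKM), the scale on which levels of different genes can be compared, YBX3 was a minor part of the Y-box transcripts. Its share of the summed level of YBX1, YBX2 and YBX3 was 1.14%, 1.33% and 1.55% in control libraries 1 to 3 and 2.98%, 2.84% and 2.98% in silenced libraries 1 to 3. The ratio of YBX1 to YBX3 was 86.6, 74.2 and 63.5 in the neg.si libraries and 32.5, 34.2 and 32.6 in the RIPK4.si libraries. YBX1 thus stayed the dominant Y-box transcript in every library. The summed Y-box level was 314 ± 57.1 RPKM (SD, n = 3) in neg.si and 349 ± 39.2 RPKM (SD, n = 3) in RIPK4.si, with overlapping libraries. The share depends on which length is used for YBX3. With the canonical transcript of each gene, of 1931 bases for YBX3 in place of 8621 bases of merged exons, it was 5.05% in neg.si and 10.6% in RIPK4.si.

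**Figure D2:**
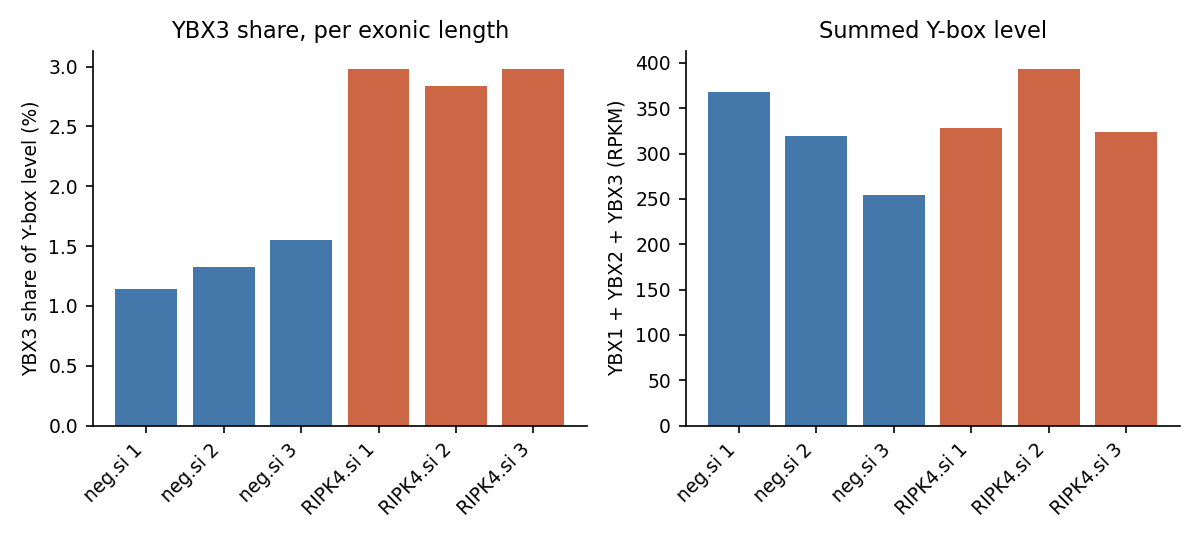
YBX3 as a percentage of the summed length-scaled level of YBX1, YBX2 and YBX3 (left) and that sum in RPKM (right), with 1 bar per library, blue for neg.si and red for RIPK4.si, both axes from 0. The share is between 1.14% and 1.55% in neg.si and between 2.84% and 2.98% in RIPK4.si, while the sums of the groups overlap.

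CARHSP1 (chr16:8852942-8869012, minus strand), the calcium-regulated heat-stable protein with a single cold shock domain, reached 30.7, 21.8 and 16.5 CPM in control libraries 1 to 3 and 23.4, 26.9 and 25.7 CPM in silenced libraries 1 to 3. The RIPK4.si values lay within the range of the neg.si values. The log2 fold change was 0.14 (95% interval -0.37 to 0.64, edgeR adjusted p = 0.920). CARHSP1 overlaps PMM2 on the opposite strand over 9593 bases, and the counting ignored strand, so reads from shared exonic stretches cannot be assigned by strand.

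The libraries of the groups overlapped for CIRBP and not for RBM3, and the difference between the changes of these cold-inducible genes was not tested. CIRBP (chr19:1259384-1274880), which is induced by mild cold and binds transcripts of the circadian clock, had 104, 71.2 and 68.5 CPM in control libraries 1 to 3 and 103, 79.1 and 83.0 CPM in silenced libraries 1 to 3. In both groups replicate 1 was highest, and the groups overlapped. The log2 fold change was 0.12 (95% interval -0.33 to 0.57, edgeR adjusted p = 0.923). CIRBP overlaps CIRBP-AS1 on the opposite strand over 2790 bases.

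RBM3 (ENSG00000102317.18, chrX:48574449-48581162, plus strand), which is induced by cold and low oxygen and protects synapses, had 96.9, 103 and 144 CPM in control libraries 1 to 3 and 83.3, 57.8 and 83.8 CPM in silenced libraries 1 to 3. Every RIPK4.si library was under every neg.si library, with neg.si replicate 3 far above the others and RIPK4.si replicate 2 far under them. The means were 115 ± 25.6 CPM (SD, n = 3) and 75.0 ± 14.8 CPM (SD, n = 3), a ratio of 0.653. The log2 fold change was -0.62 (SE 0.209, 95% interval -1.09 to -0.14), which did not pass correction over all genes (unadjusted p = 0.0159, edgeR adjusted p = 0.290). The adjusted p-value was 0.151 with DESeq2 and 0.0915 after removal of the GC trend, where the log2 fold change was -0.58 and 3.41% of all genes were called. A two-sided exact permutation test of log2 CPM gave p = 0.1, the smallest that 3 libraries against 3 allow. Without neg.si replicate 3 the log2 fold change was -0.42, and without RIPK4.si replicate 2 it was -0.45. The number of CIRBP counts per RBM3 count was 1.08, 0.688 and 0.475 in control libraries 1 to 3 and 1.24, 1.37 and 0.990 in silenced libraries 1 to 3, so neg.si replicate 1 lay among the RIPK4.si libraries. RBM3 overlaps non-coding genes on the opposite strand over 412 and 1384 bases, and an unclassified gene model on its own strand over 422 bases.

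**Figure D3:**
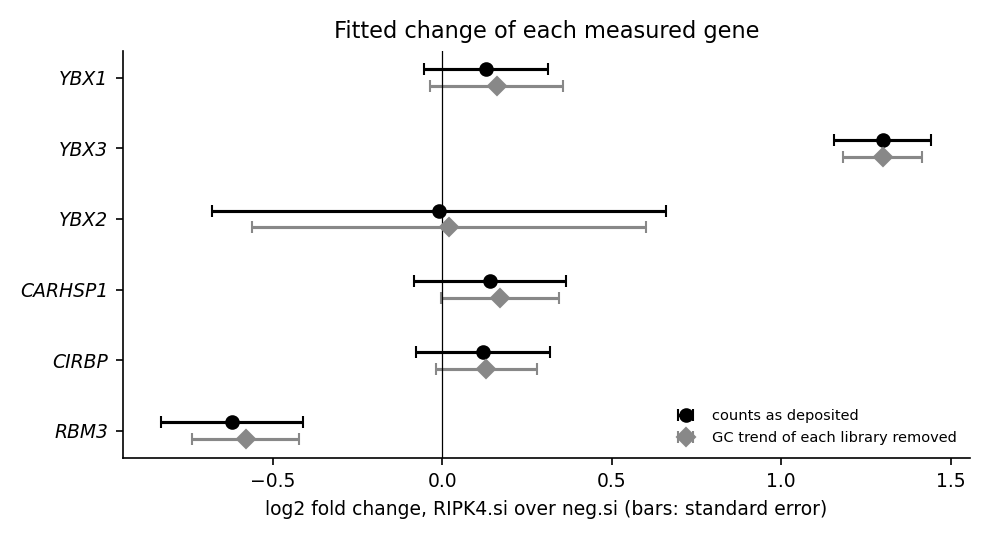
Log2 fold change of RIPK4.si over neg.si for the 6 genes, with bars of 1 standard error, from the counts as deposited (black circles) and after removal of the GC trend of each library (grey diamonds). YBX3 stands at 1.30 in both, RBM3 at -0.62 and -0.58, and the other 4 genes lie between -0.01 and 0.17, each within 1 standard error of 0.

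In neg.si the order of levels per length was YBX1 at 310.2 RPKM, RBM3 at 19.7, CIRBP at 12.8, YBX3 at 4.14, CARHSP1 at 4.13 and YBX2 at 0.0703. YBX1 stood clear of all others in every library. RBM3 at 16.6 to 24.7 RPKM lay just above CIRBP at 10.8 to 16.4 RPKM, and YBX3 at 3.95 to 4.25 RPKM fell within the spread of CARHSP1 at 2.96 to 5.51 RPKM. In RIPK4.si the order was YBX1 at 338.3 RPKM, CIRBP at 13.9, RBM3 at 12.9, YBX3 at 10.2, CARHSP1 at 4.55 and YBX2 at 0.0693. Here CIRBP and RBM3 overlapped, RBM3 and YBX3 overlapped, and YBX3 no longer overlapped CARHSP1. With canonical transcripts as the length, YBX3 came to 18.5 RPKM in neg.si, under CIRBP at 24.3 RPKM, and to 45.5 RPKM in RIPK4.si, above CIRBP at 26.4 RPKM, so its place in the order depends on the transcript taken.

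The genes also differed in how the replicates spread around the mean. In neg.si replicate 3, relative to the mean of the 6 libraries on the log2 scale, YBX1 stood at -0.36, CARHSP1 at -0.52 and CIRBP at -0.29, while RBM3 stood at 0.66. In RIPK4.si replicate 2 RBM3 was at -0.66 and YBX1 at 0.25. Removal of the GC trend brought CIRBP in neg.si replicate 3 to -0.06. It left YBX1 at -0.45, CARHSP1 at -0.41 and RBM3 at 0.53 in the same library. The SD of CIRBP over the neg.si libraries went from 0.34 to 0.20 and that of RBM3 from 0.31 to 0.22, whereas that of YBX1 went from 0.27 to 0.33.

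**Figure D4:**
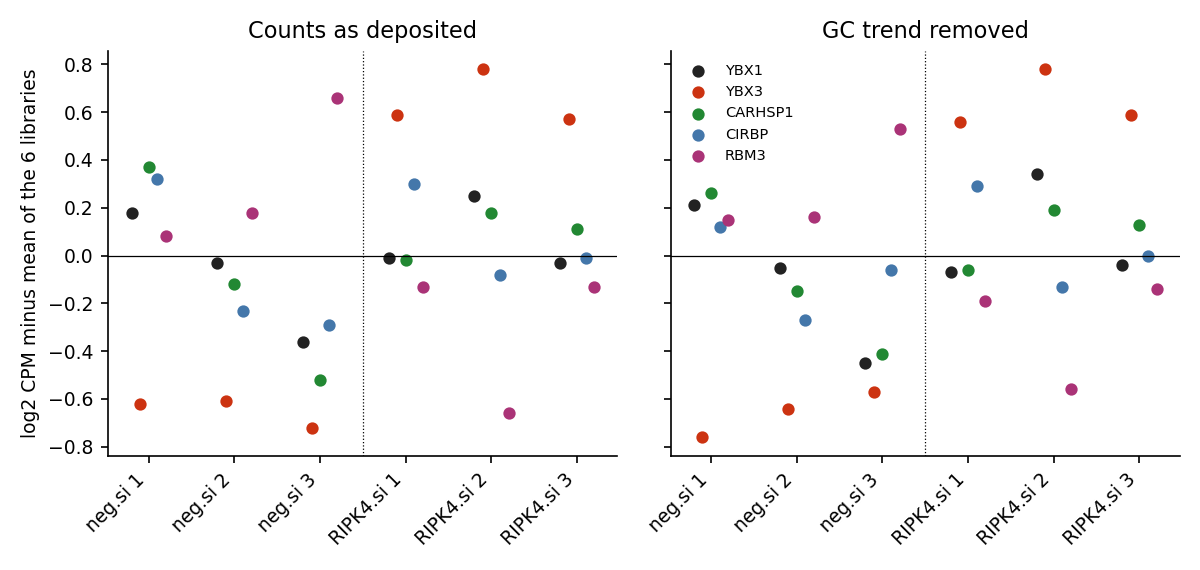
Log2 CPM of 5 genes in each library minus the mean of the 6 libraries, from the counts as deposited (left) and after removal of the GC trend (right), with the dotted line between neg.si and RIPK4.si. YBX3 is between -0.72 and -0.61 in neg.si and between 0.57 and 0.78 in RIPK4.si on the left, and RBM3 is highest in neg.si replicate 3 and lowest in RIPK4.si replicate 2 in both panels.

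The genes whose levels followed YBX3 most closely over the 6 libraries, among 9202 genes with a mean of at least 10 CPM, were TDP1, AGK, SMS, UAP1L1 and SQOR. Their Pearson correlations of log2 CPM with YBX3 ran from 0.9966 to 0.9985. The 6 points form 2 groups, so these values mostly restate a difference between the groups with tight replicates, and they carry no test. TDP1, a DNA repair phosphodiesterase, had 17.6 ± 0.177 CPM with neg.si and 22.7 ± 0.522 CPM after silencing (SD, n = 3 each). AGK, a mitochondrial lipid kinase, had 47.6 ± 2.38 CPM and 88.1 ± 6.50 CPM. SMS, which makes spermine, had 188 ± 1.43 CPM and 237 ± 2.45 CPM. UAP1L1 had 19.2 ± 1.42 CPM and 56.2 ± 3.45 CPM. SQOR, which oxidizes hydrogen sulfide, had 7.42 ± 0.728 CPM and 24.4 ± 3.68 CPM.

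Of other human genes with cold shock domains, CSDC2 had 0.685 CPM in neg.si and 0.667 CPM in RIPK4.si, with a log2 fold change of -0.03 (SE 0.466). LIN28A, the paralog of LIN28B, held 0, 0 and 2 counts in the neg.si libraries and 12, 0 and 1 counts in the RIPK4.si libraries and did not pass the filter on low counts.

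Partners and targets of YBX3 were examined as a list of 13 genes, of which 11 passed the filter on low counts. None was called by edgeR or by DESeq2, against 0.767% and 2.91% of all genes, and 1 of 11 had an unadjusted p-value under 0.05, against 10.8% of all genes. That gene was SLC7A5, the amino acid transporter LAT1, whose messenger RNA YBX3 is known to bind and stabilize. It had 203, 180 and 115 CPM in control libraries 1 to 3 and 205, 334 and 259 CPM in silenced libraries 1 to 3, with neg.si replicate 1 and RIPK4.si replicate 1 nearly equal. The log2 fold change was 0.68 (SE 0.246, edgeR adjusted p = 0.328, and 0.0619 after removal of the GC trend). SLC3A2, its heavy chain, gave 0.23 (SE 0.214). CCND1 gave 0.15 (SE 0.180) and PCNA 0.26 (SE 0.194), which are the cell cycle genes described as ZONAB targets. TJP1, which encodes ZO-1, gave -0.08 (SE 0.229), and RALA gave -0.20 (SE 0.140). The median log2 fold change of the list was 0.15, beside -0.02 over all genes tested.

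Described targets of YBX1 were a second list of 13 genes, 11 of them tested. None was called by edgeR or by DESeq2, against 0.767% and 2.91% of all genes. An unadjusted p-value under 0.05 was reached by 1 of 11, again beside 10.8% of all genes. This was CD44, the hyaluronan receptor, at 1211 ± 37.4 CPM with neg.si and 1619 ± 82.6 CPM after silencing (SD, n = 3 each), a log2 fold change of 0.42 (SE 0.144, edgeR adjusted p = 0.298). CDC6, a replication licensing factor, gave 0.25 (SE 0.143). EGFR and CXCR4 did not pass the filter on low counts. The median of the list was 0.01.

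The LIN28B and let-7 list held 16 genes, 15 of them tested. None was called by edgeR or by DESeq2, against 0.767% and 2.91% of all genes. An unadjusted p-value under 0.05 was reached by 2 of 15, in opposite directions, beside 4.85% higher and 6.0% lower among all genes. HMGA2, a chromatin protein and a classic let-7 target, had 158 ± 48.2 CPM with neg.si and 96.2 ± 10.5 CPM after silencing (SD, n = 3 each), a log2 fold change of -0.71 (SE 0.219, edgeR adjusted p = 0.227). CDC25A, a phosphatase that drives entry into S phase, had 17.6 ± 2.70 CPM and 27.2 ± 3.64 CPM, a log2 fold change of 0.63 (SE 0.180, edgeR adjusted p = 0.191). The 3 IGF2BP genes, which are let-7 targets and RNA-binding proteins themselves, lay between -0.25 and 0.15. The median of the list was 0.00 to 2 decimals.

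The list around CIRBP and RBM3 held 12 genes, all of them tested. None was called by edgeR or by DESeq2, against 0.767% and 2.91% of all genes. An unadjusted p-value under 0.05 was reached by 2 of 12, both lower in RIPK4.si, as were 6.0% of all genes at that threshold. TRPV4, a warmth-sensitive channel tied to CIRBP and RBM3 induction, had 62.4, 52.0 and 40.9 CPM in control libraries 1 to 3 and 31.5, 39.3 and 32.5 CPM in silenced libraries 1 to 3. Its log2 fold change was -0.59 (SE 0.190, edgeR adjusted p = 0.251), and after removal of the GC trend the adjusted p-value was 0.0226, so that TRPV4 was then called, as were 3.41% of all genes. CLK4, a kinase of splicing factors that responds to body temperature, gave -0.39 (SE 0.159, edgeR adjusted p = 0.400), and its relative CLK1 gave -0.30 (SE 0.148). RBMX, a glycine-rich relative with the same kind of RNA-binding fold, had 181.4 and 181.3 CPM in neg.si and RIPK4.si, respectively.

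Proteins that share messenger RNA particles or stress granules with the Y-box proteins formed the largest list, 20 genes that were all tested. None was called by edgeR or by DESeq2, against 0.767% and 2.91% of all genes. An unadjusted p-value under 0.05 was reached by 3 of 20, all higher in RIPK4.si, as were 4.85% of all genes at that threshold. G3BP2, a stress granule scaffold, had 178, 225 and 287 CPM in control libraries 1 to 3 and 349, 320 and 405 CPM in silenced libraries 1 to 3, a log2 fold change of 0.64 (SE 0.197, edgeR adjusted p = 0.229). After removal of the GC trend G3BP2 was called, with an adjusted p-value of 0.0246, as were 3.41% of all genes. Its paralog G3BP1 gave -0.07 (SE 0.144). SYNCRIP gave 0.43 (SE 0.158, edgeR adjusted p = 0.343) and PABPC4 0.33 (SE 0.144, edgeR adjusted p = 0.439). The median of the list was -0.01.

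**Figure D5:**
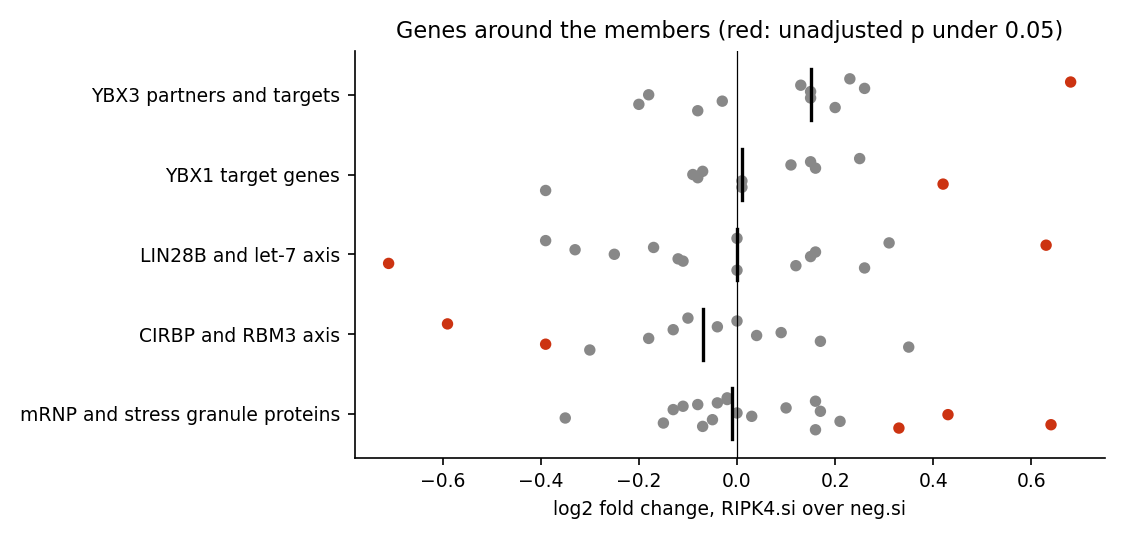
Log2 fold change of RIPK4.si over neg.si for the tested genes of 5 lists around the cold shock and cold-inducible proteins, with a point per gene, red where the unadjusted p-value was under 0.05, and a black bar at the median of the list. Medians lie between -0.07 and 0.15, and the outermost genes are SLC7A5 at 0.68, G3BP2 at 0.64, CDC25A at 0.63, TRPV4 at -0.59 and HMGA2 at -0.71.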

How the data were processed

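Poly(A) RNA of 6 libraries was sequenced as paired reads on a BGISEQ-500. Before deposit the authors used Cutadapt for trimming, TopHat for alignment (GRCh38.p13) and HTSeq for counting, with strand ignored. The deposited counts are whole numbers of read pairs, not normalized. The deposited signal values are these counts divided by DESeq2 size factors. The deposited fold (ratio), log2 and p-value columns hold the authors' own comparison and were not used.

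Changes were fitted in R 4.3.3 by edgeR 4.0.16 with TMM normalization, its filter on low counts, a quasi-likelihood test of condition and Benjamini-Hochberg adjustment over 16297 genes. The standard error is the log2 fold change divided by the square root of F. Log2 CPM used a prior count of 2. RPKM used merged exons of GENCODE release 44, which holds 24416 of the gene identifiers and gives the analysed genes the same coordinates as the table. GC content came from canonical transcripts, and each library's trend was removed by lowess with span 0.3. DESeq2 1.42.0 was an alternative. Python 3.11.15 and matplotlib 3.10.9 were used for summaries and plots.

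The genes and lists were chosen with earlier results of these data known. The genes named were the members, RIPK4, called genes of a list or else its 2 with the smallest p-values, and the 5 most like YBX3. Among cell type markers, all of the melanocyte lineage and those without an entry (KRT1 and CDH5) were named as well. Further list genes (SLC3A2, CCND1, PCNA, TJP1, CLK1, RBMX, G3BP1, PABPC4, EGFR, CXCR4, LIN28A and the IGF2BP genes) were named after their values were seen. P-values measure the spread between the libraries, which the study describes as independent experiments and the labels only number. The edgeR code was tested on simulated data. A gene of the list of other cold shock domain genes is not reported here.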

Additional observations from a re-analysis of the deposited data

How the results depend on the processing

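The change of YBX3 stayed between 1.24 and 1.35 on the log2 scale under every alternative run. None of the other 5 genes passed the adjusted threshold under any of these alternatives. RBM3 came closest, at -0.58 (edgeR adjusted p = 0.0522) with both a replicate block and removal of the GC trend. LIN28B could not be fitted, having no entry, and YBX2 did not pass the filter with at least 10 counts or without neg.si replicate 1 or RIPK4.si replicate 3. Whether equal replicate numbers mark paired libraries could not be decided, because the GC trend was still in the deviations compared. Their correlations for equal numbers were -0.242, 0.251 and 0.346. The closest to neg.si replicate 1 was RIPK4.si replicate 2 at 0.413, and to neg.si replicate 3 it was RIPK4.si replicate 3. With a replicate block 131 genes were called in place of 125, YBX2 was at 0.03 and RBM3 at -0.61. With DESeq2 437 genes were called, with the GC trend removed 555, and with the replicate block and the GC trend removed 486. With single libraries left out the count of calls ran from 0 to 295: dropping neg.si replicate 1 gave 70, dropping neg.si replicate 3 gave 295, dropping RIPK4.si replicate 2 gave 4, and dropping any of the other 3 libraries gave 0. The RIPK4 change then ran from -2.06 to -1.74 and lost its call in the fits without neg.si replicate 2 or any RIPK4.si library. Over the same fits YBX1 ran from -0.0023 to 0.27, CARHSP1 from -0.05 to 0.42, both turning negative without neg.si replicate 3, YBX2 from -0.44 to 0.36, CIRBP from 0.0047 to 0.36 and RBM3 from -0.71 to -0.42. YBX2 was at 0.02 with the GC trend removed. Among the lists, TRPV4 and G3BP2 were called with the GC trend removed, 1 gene in each list, with or without the replicate block, and HMGA2 only with both, 1 gene of the LIN28B and let-7 list. G3BP2 was also called without neg.si replicate 3, so that the count of its list ran from 0 to 1. The causes were not tested, except that fits without a library rest on fewer samples.

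Gene length moved the RPKM values of neg.si. With the longest annotated transcript they were 5.58 for YBX3, 7.61 for CARHSP1, 23.1 for CIRBP and 26.7 for RBM3, and YBX3 made up 1.58% of the Y-box level in neg.si and 3.45% in RIPK4.si. With the canonical transcript, chosen after seeing the data, they were 18.5 for YBX3, 8.50 for CARHSP1, 24.3 for CIRBP, 26.7 for RBM3 and 0.197 for YBX2, and the share was 5.05% and 10.6%. With 59 counts in all, YBX2 is limited by depth.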
